A study of Mus musculus with 4 samples.

Results

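The platelet-derived growth factors (PDGFs) and their receptors are encoded by 6 genes, the 4 ligand genes Pdgfa, Pdgfb, Pdgfc and Pdgfd and the 2 receptor genes Pdgfra and Pdgfrb. They were chosen by name, as every probe set whose platform annotation gives 1 of these symbols and no other. This gave 14 of the 45037 probe sets tested and 6 of 18193 genes. Below, the brightest probe set of a gene, by its mean over the 4 arrays, stands for that gene, and the others are given beside it.

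The study compared cells from lymph nodes that drained metastatic tumours with cells from nodes that drained non-metastatic ones, in female SCID/NOD mice aged 6 to 8 weeks, an immunodeficient strain. The metastatic group carried subcutaneous tumours of 293-VEGF-D cells, a human embryonic kidney line made to overexpress the lymphatic growth factor VEGF-D, and only visibly enlarged nodes were taken. The non-metastatic group carried tumours of 293-Apex cells, of the same human line without VEGF-D. In both groups the axillary node was removed at a tumour volume of 1600 to 2500 mm3, after 3 to 4 weeks, nodes of 1 to 5 mice were pooled, and the digested cells were cultured briefly and selected with beads for podoplanin, which lymphatic endothelium and the fibroblastic reticular cells of nodes both carry. Each group had 2 biological replicates with 1 Affymetrix array each, and all levels are log2 signals. According to the sorting label, tumour cells and leukocytes were removed before culture in the metastatic preparations and not in the non-metastatic ones, although the growth protocol describes 1 procedure for all. VEGF-D, node enlargement, depletion and metastasis therefore cannot be told apart. With 4 arrays, all values are of limited precision.

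PDGFs are secreted dimers that bring receptor chains together at the cell surface and so switch on their tyrosine kinase domains. The A and C chains act through the alpha receptor, the B chain binds both receptors, and the D chain acts mainly through the beta receptor. The C and D chains are secreted in a latent form that proteases must cut. In blood vessels the B chain is made by endothelium and recruits pericytes, which carry the beta receptor, whereas the alpha receptor is a common marker of fibroblasts. Reticular cells of lymph nodes carry both receptors.

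The sample titles call the cells LN EC, read here as lymph node endothelial cells. This label was checked against marker genes, each set against the median of all probe sets (5.95). With each gene represented by its brightest probe set, 11922 of all 18193 genes lay above it. Of the markers, 5 of 9 lymphatic endothelial genes and 7 of 14 blood and pan endothelial genes lay above it. So did 10 of 12 fibroblast and reticular genes, among them the collagen genes Col1a1 and Col1a2. The junction genes Pecam1 and Cdh5 and the lymphatic transcription factor gene Prox1, singled out after their values were seen, had mean signals of 4.94, 5.87 and 4.00, below it. Picked in the same way, the endothelial genes Eng (10.29) and Kdr (7.53) and the lymphatic genes Foxc2 (8.56) and Lyve1 (6.65) lay above it. The fibroblast and reticular genes Lum (5.23) and Tnfsf11 (4.69) lay below it. The receptor genes Pdgfra and Pdgfrb had mean signals of 12.26 and 12.27, each at percentile 98.1 of all probe sets. Probe sets differ in brightness for equal amounts of RNA and no detection calls were used here, so these counts do not give the makeup of the preparations and a dim gene cannot be called absent. In such bulk samples fewer cells of a type and less RNA per cell cannot be told apart.

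The sequences below are the promoters of Pdgfa and Pdgfc, shown because these are the ligand genes on which every probe set differed by more than its standard error, lower for Pdgfa and higher for Pdgfc in the metastatic group. They come from RefSeq on build GRCm38.p6, where 4 of the 6 genes have a window used here, and run from 250 bases before to 50 after an annotated start, on the coding strand, 5′ to 3′. Pdgfa has 2 annotated starts on the minus strand, with windows at chr5:138994895-138995194 (upstream) and chr5:138994232-138994531 (downstream). The Pdgfc window is at chr3:81036166-81036465 on the plus strand. Capitals mark the GC box GGGCGG, or its reverse complement CCGCCC, the binding motif of the Sp1 family of transcription factors.
Pdgfa upstream start: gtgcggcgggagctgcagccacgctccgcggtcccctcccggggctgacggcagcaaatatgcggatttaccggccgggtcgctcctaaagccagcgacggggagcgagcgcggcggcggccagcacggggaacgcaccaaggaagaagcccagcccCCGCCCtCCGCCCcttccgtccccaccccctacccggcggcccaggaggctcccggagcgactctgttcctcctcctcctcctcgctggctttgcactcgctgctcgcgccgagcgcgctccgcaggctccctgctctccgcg
Pdgfa downstream start: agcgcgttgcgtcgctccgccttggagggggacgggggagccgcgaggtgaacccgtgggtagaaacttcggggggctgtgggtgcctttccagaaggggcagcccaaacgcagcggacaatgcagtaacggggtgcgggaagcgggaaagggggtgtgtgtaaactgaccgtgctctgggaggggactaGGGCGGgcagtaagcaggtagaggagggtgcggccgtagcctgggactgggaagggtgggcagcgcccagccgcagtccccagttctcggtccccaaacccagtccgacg
Pdgfc: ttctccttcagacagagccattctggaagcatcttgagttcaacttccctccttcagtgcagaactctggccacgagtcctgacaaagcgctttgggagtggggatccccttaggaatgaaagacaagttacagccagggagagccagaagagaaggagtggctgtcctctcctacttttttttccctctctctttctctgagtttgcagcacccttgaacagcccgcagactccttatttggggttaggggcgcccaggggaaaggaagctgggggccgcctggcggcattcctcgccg
The upstream Pdgfa window held 2 GC boxes and the downstream one 1, while those of Pdgfc, Pdgfd and Pdgfra held 0. A GC box was present in 35.7% of the 32851 windows of all genes. The Pdgfa windows had a G and C content of 73.3% and 67%, that of Pdgfc had 55%, and the median window had 52.7%. TATAAA was found once, in the Pdgfd window, and occurred in 13.6% of all windows. CCAAT, found in 37.4% of them, was in none of these 5. Both strands were searched for all 3 motifs, and no matches overlapped. These matches describe the letters in the windows and are not binding sites measured in these cells.

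The comparison of the groups asks whether the nodes' stromal and endothelial cells carry different amounts of each PDGF transcript when the tumour upstream is metastatic. Pdgfa signal was lower in the metastatic group and Pdgfb signal was higher, Pdgfc lay higher by less, and the group means of Pdgfd and Pdgfrb lay within 0.07 of each other. None of the 6 genes passed limma after Benjamini-Hochberg adjustment over all probe sets, and neither did any other of the 18193 genes (0% called). At an unadjusted p under 0.05, 2 of the 6 genes were counted, Pdgfa lower and Pdgfb higher, where 6.7% of all genes were. The arrays of the groups did not overlap for 3 of the 6 genes, against 34.6% of all genes. Of these 3, Pdgfb and Pdgfc were higher (17.2% of all genes) and Pdgfa was lower (17.3%). The median difference of the 6 genes was 0.12, with 3 higher and 3 lower, beside a median of -0.0003 over all genes. The median of the 6 was 0.29 and 0.07 without metastatic replicates 1 and 2, 0.18 and 0.08 without non-metastatic replicates 1 and 2, and -0.019 over the 5 genes left by brighter probe sets alone. Without non-metastatic replicate 2 the tally was 5 higher and 1 lower.

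**Figure D1:**
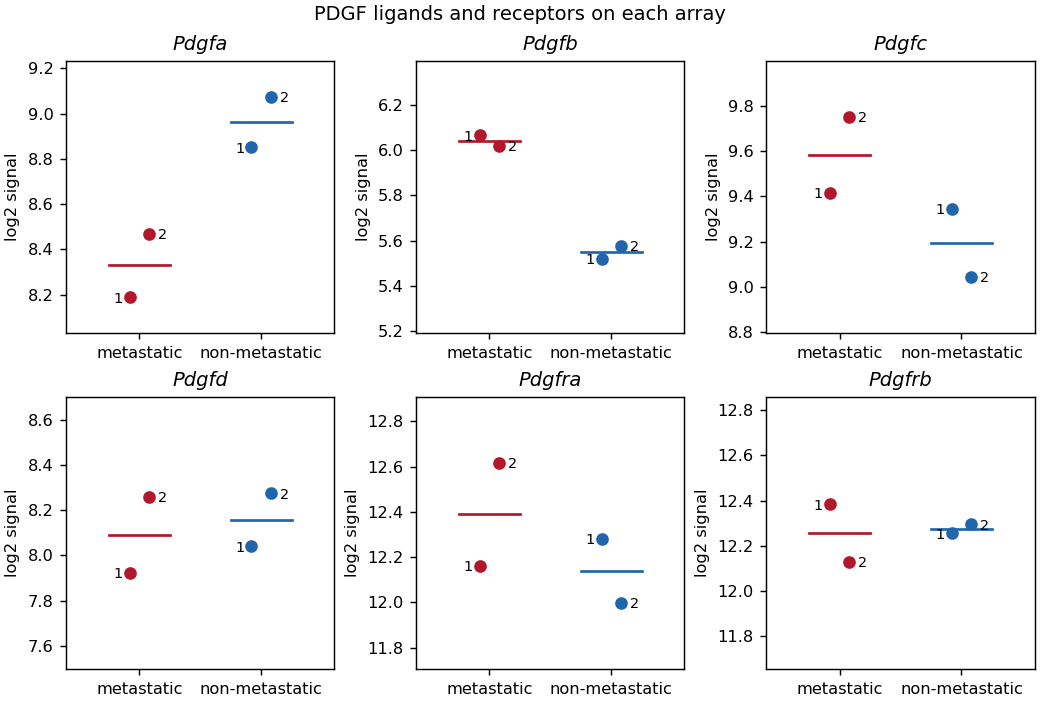
Log2 signal of the 6 PDGF genes on each array, 1 panel per gene, with metastatic arrays in red and non-metastatic arrays in blue. Numbers are replicates, lines are group means, and each vertical axis spans the same 1.2 log2 units; the groups overlap for Pdgfd, Pdgfra and Pdgfrb and not for Pdgfa, Pdgfb and Pdgfc.

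Pdgfa encodes the A chain, which signals through the alpha receptor alone. Its log2 signal was 8.19 and 8.47 on the metastatic arrays, against 8.85 and 9.07 on the non-metastatic arrays. Both metastatic arrays were below both non-metastatic ones, and within each group replicate 2 was the higher. The means were 8.33 ± 0.20 and 8.96 ± 0.16 (SD, n = 2 each), a difference of -0.63 (SE 0.15, 95% interval -1.0 to -0.26), which is 1.55-fold lower signal (limma adjusted p = 0.511). Of all genes, 2.63% had a larger difference in either direction. The other Pdgfa probe set read 7.93 and 8.34 in the metastatic group and 8.31 and 8.76 in the non-metastatic group, a difference of -0.40 (SE 0.21). On that probe set metastatic replicate 2 lay above non-metastatic replicate 1 by a small margin, so the groups overlapped.

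Pdgfb encodes the B chain, the pericyte-recruiting ligand of endothelium. Its brighter probe set read 6.06 and 6.02 in the metastatic group, against 5.52 and 5.58 in the non-metastatic group. The replicates lay within 0.06 of each other in both groups, and its standard error was the smallest of the 6 genes. The difference was 0.49 (SE 0.11, 95% interval 0.23 to 0.76), or 1.41-fold higher signal (limma adjusted p = 0.453). The second Pdgfb probe set did not show it, with 4.98 and 5.06 in the metastatic group and 5.09 and 5.03 in the non-metastatic group, a difference of -0.04 (SE 0.11, 95% interval -0.31 to 0.23). Both probe sets were dim, since their mean signals of 5.79 and 5.04 fell below the 5.95 of the median probe set. The higher Pdgfb value therefore rests on 1 dim probe set of 2.

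Pdgfc encodes a latent ligand of the alpha receptor. The 2 probe sets gave the same picture, although the suffixes of their names say that each may detect more than 1 transcript. The brighter one read 9.42 and 9.75 in the metastatic group, against 9.35 and 9.04 in the non-metastatic group. The groups did not overlap, but metastatic replicate 1 and non-metastatic replicate 1 differed by less than either pair of replicates did. The difference was 0.39 (SE 0.17, 95% interval -0.03 to 0.81; limma adjusted p = 0.847). The other probe set read 9.15 and 9.40 in the metastatic group and 9.15 and 8.61 in the non-metastatic group, a difference of 0.40 (SE 0.20).

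Pdgfd encodes the latent ligand of the beta receptor. Its brightest probe set read 7.92 and 8.26 in the metastatic group, against 8.04 and 8.27 in the non-metastatic group. The groups overlapped and the replicates of each lay further apart than the group means did. The difference was -0.07 (SE 0.16), and the 95% interval of -0.46 to 0.33 leaves room for a moderate difference in either direction (limma adjusted p = 0.987). The other probe sets differed by -0.01 (SE 0.21) and -0.09 (SE 0.14), and the last of them was dim, with a mean signal of 4.17.

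Pdgfra encodes the alpha receptor. Its brightest probe set read 12.16 and 12.62 in the metastatic group, against 12.28 and 12.00 in the non-metastatic group. The groups overlapped, since metastatic replicate 1 lay under non-metastatic replicate 1. The difference was 0.25 (SE 0.19, 95% interval -0.22 to 0.72; limma adjusted p = 0.955). A second probe set read 9.95 and 10.52 in the metastatic group, against 9.75 on each non-metastatic array, a difference of 0.49 (SE 0.20, 95% interval -0.01 to 0.99). The remaining probe set read 8.79 and 9.08 in the metastatic group and 8.90 and 8.58 in the non-metastatic group, a difference of 0.19 (SE 0.17). All 3 were highest on metastatic replicate 2. These probe sets share their arrays and are not separate measurements of the preparations.

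Pdgfrb encodes the beta receptor, which pericytes and reticular cells carry. Its brightest probe set read 12.38 and 12.13 in the metastatic group, against 12.26 and 12.30 in the non-metastatic group. Both non-metastatic values fell between the metastatic ones. The difference was -0.02 (SE 0.13, 95% interval -0.34 to 0.30; limma adjusted p = 0.996), and that of the other probe set was 0.02 (SE 0.15).

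**Figure D2:**
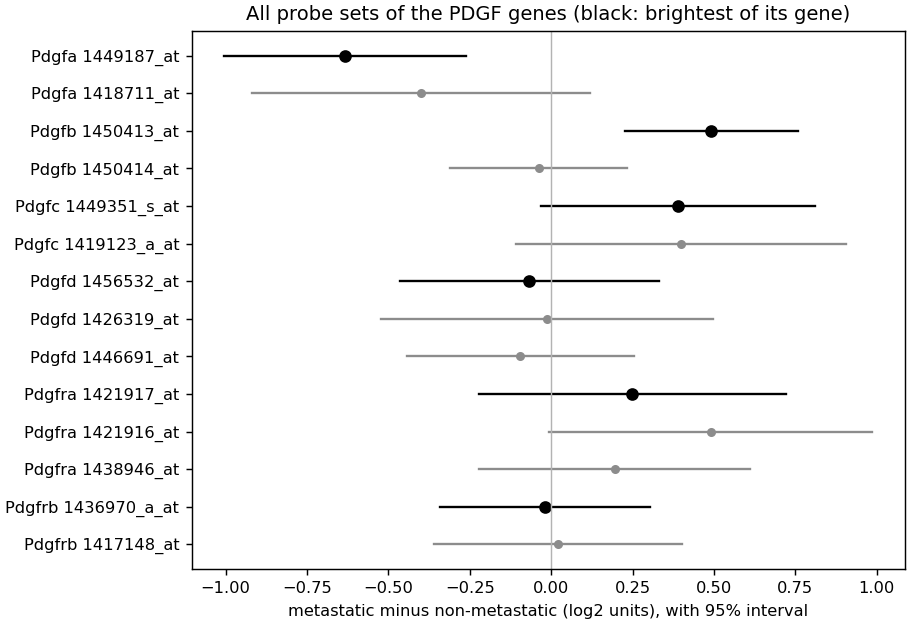
Difference in log2 signal, metastatic minus non-metastatic, for the 14 probe sets of the 6 genes, with limma's 95% intervals; black marks the brightest probe set of a gene and grey the others. Only the brightest probe sets of Pdgfa and Pdgfb have intervals that leave out 0, and the second Pdgfb probe set stands at -0.04.

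The values depended in part on single arrays. Without metastatic replicate 2 the difference of Pdgfc was 0.22 and that of Pdgfra 0.02, and without metastatic replicate 1 they were 0.56 and 0.48. Leaving out non-metastatic replicates 1 and 2 in turn gave 0.54 and 0.24 for Pdgfc, and 0.39 and 0.11 for Pdgfra. Pdgfb ranged only from 0.46 to 0.52, and Pdgfa from -0.77 to -0.49. Pdgfd ran from -0.23 to 0.10 and Pdgfrb from -0.15 to 0.11, so that both changed sign. A fit with 1 array left out keeps a single array in 1 of the groups, so only the sizes of such differences are given here.

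**Figure D3:**
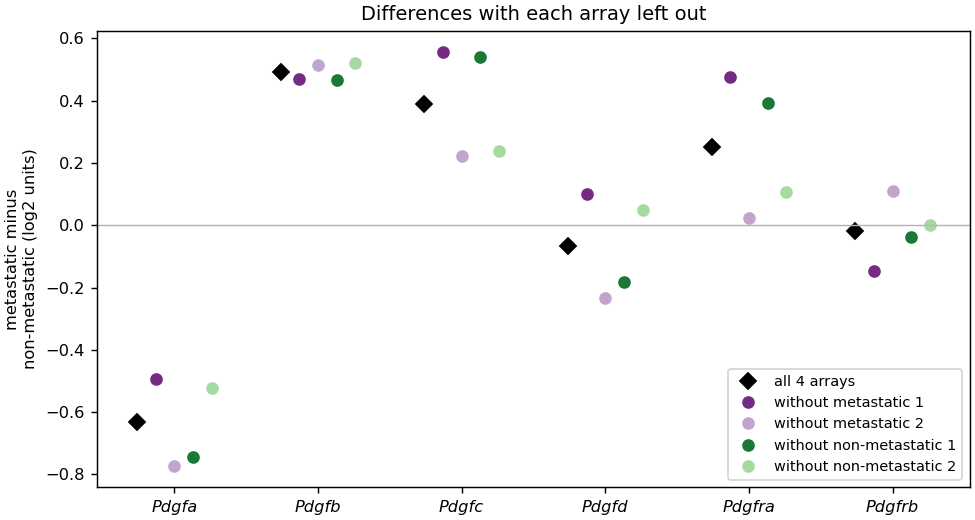
Difference in log2 signal, metastatic minus non-metastatic, of the 6 genes with all 4 arrays (diamonds) and with 1 array left out (circles). Pdgfa stays between -0.77 and -0.49 and Pdgfb between 0.46 and 0.52, whereas Pdgfra ranges from 0.02 to 0.48.

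The genes whose pattern over the 4 arrays was most like those of Pdgfa and Pdgfc, the 2 members with the widest range, were found among 11921 other genes brighter than the median. The measure was the root mean square difference of log2 signals after each gene was centred on its own mean. Nearest to Pdgfa were Slc12a8, a member of the cation-chloride cotransporter family (0.0275), Fam107b (0.0301) and Jam2, a junctional adhesion molecule of endothelium (0.0353). Jam2 read 10.19 and 10.48 in the metastatic group and 10.77 and 11.05 in the non-metastatic group. Nearest to Pdgfc were the tyrosine kinase gene Frk (0.0437), the homeobox gene Zfhx4 (0.0446) and Slc7a3, a transporter of cationic amino acids (0.0496). Within a distance of 0.1 there were 40 genes for Pdgfa and 42 for Pdgfc, so that 4 arrays do not single out a few.

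Genes of proteins that release, bind or resemble PDGFs had a median difference close to 0. Of 12 such genes, 4 were higher and 8 lower, with a median of -0.02. At an unadjusted p under 0.05, 1 was counted, where 6.7% of all genes were. That gene was Pdgfrl, which encodes a secreted protein resembling the extracellular part of the receptors. It read 9.53 and 8.80 in the metastatic group, against 10.54 and 9.80 in the non-metastatic group, a difference of -1.0 (SE 0.32, limma adjusted p = 0.70). Both metastatic arrays were below both non-metastatic ones, and in each group replicate 2 lay about 0.73 below replicate 1. Leaving out single arrays gave -1.37 to -0.64. St14, encoding the PDGF-D-cleaving protease matriptase, differed by -0.12 (SE 0.11), and Pcsk5, a convertase that processes the A chain, by 0.15 (SE 0.13) at a dim mean signal of 4.60.

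Among 25 genes that relay the receptors' signal, 14 were higher and 11 lower, with a median of 0.03. Those at an unadjusted p under 0.05 numbered 3, all higher, where 2.63% of all genes were counted as higher. The adaptor gene Nck2, whose product links phosphorylated receptors to the actin skeleton, read 7.92 and 7.85 in the metastatic group, against 7.29 and 7.43 in the non-metastatic group. Its difference was 0.53 (SE 0.11, limma adjusted p = 0.446), and a second probe set gave 0.52 while a dimmer one gave -0.15. Shc1, an adaptor that couples receptors to Ras, differed by 0.34 (SE 0.13) and Plcg1, a phospholipase that binds the activated receptor, by 0.28 (SE 0.11). The dimmer probe sets of Plcg1 stood at 0.02 and -0.13. The median of the list was 0.09 and 0.04 without metastatic replicates 1 and 2, and 0.08 and 0.01 without non-metastatic replicates 1 and 2. A further 7 genes of this list were not analysed here.

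Of 13 genes that dampen receptor signalling, 5 were higher and 8 lower in the metastatic group, with a median of -0.09. An unadjusted p under 0.05 was reached by 4, all lower, where 4.07% of all genes were counted as lower. Dusp1, a phosphatase of MAP kinases, read 11.53 and 11.70 in the metastatic group, against 12.26 and 12.25 in the non-metastatic group, a difference of -0.64 (SE 0.12, limma adjusted p = 0.383). Spry2, a Sprouty inhibitor of Ras signalling, differed by -0.48 (SE 0.11) and the ERK phosphatase gene Dusp6 by -0.41 (SE 0.14). The dimmer probe set of Spry2 stood at -0.14. On all 3 genes, picked for their small p, both metastatic arrays lay below both non-metastatic arrays. In the whole list the groups did not overlap for 5 lower and 3 higher genes (17.3% and 17.2% of all genes). These higher genes, named after their values were seen, were Cblb at 0.35 (SE 0.17), Ptprj at 0.26 (SE 0.13) and Acp1 at 0.08 (SE 0.11). The median of the list turned to 0.04 without metastatic replicate 1 and was -0.26 without metastatic replicate 2. It was -0.06 and -0.11 without non-metastatic replicates 1 and 2.

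Early genes that growth factors such as PDGF induce in fibroblasts were lower for 11 of 14 and higher for 3, with a median of -0.11. Their summed signal was 14.1 and 13.7 in the metastatic group, against 14.0 and 14.2 in the non-metastatic group. Metastatic replicate 1 thus lay between the non-metastatic arrays. At an unadjusted p under 0.05 there were 4, all lower, where 4.07% of all genes were counted as lower. The nuclear receptor gene Nr4a1 read 9.57 and 8.92 in the metastatic group, against 10.30 and 10.43 in the non-metastatic group, a difference of -1.12 (SE 0.22, limma adjusted p = 0.400). Jun, a subunit of the AP-1 transcription factor, differed by -0.40 (SE 0.12), and Srf, the serum response factor, by -0.42 (SE 0.14). Their dimmer probe sets stood at -0.30 (SE 0.11) for Jun and -0.21 (SE 0.13) for Srf. The median of these early genes was -0.29 and -0.22 without metastatic replicates 1 and 2. It was -0.12 and -0.07 without non-metastatic replicates 1 and 2. The tally was 5 higher and 9 lower without either metastatic replicate or without non-metastatic replicate 2. Without non-metastatic replicate 1 it stayed at 3 higher and 11 lower.

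The receptor tyrosine kinases most closely related to the PDGF receptors, with their ligands, were lower for all 6 genes measured on all 4 arrays, with a median of -0.19, and for 4 of them when probe sets were averaged or when metastatic replicate 1 or non-metastatic replicate 1 was left out. Csf1r, the receptor of macrophage colony-stimulating factor, read 9.61 and 9.26 in the metastatic group, against 9.88 and 10.07 in the non-metastatic group. It differed by -0.54 (SE 0.16, limma adjusted p = 0.636), and by -0.71 to -0.37 with single arrays left out. Csf1r was the 1 gene of the list at an unadjusted p under 0.05, where 6.7% of all genes were counted. Kit, the stem cell factor receptor, was dim and differed by -0.26 (SE 0.13), and Il34, a ligand of Csf1r, by -0.27 (SE 0.20). No gene of these 5 lists passed after adjustment over all probe sets.

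**Figure D4:**
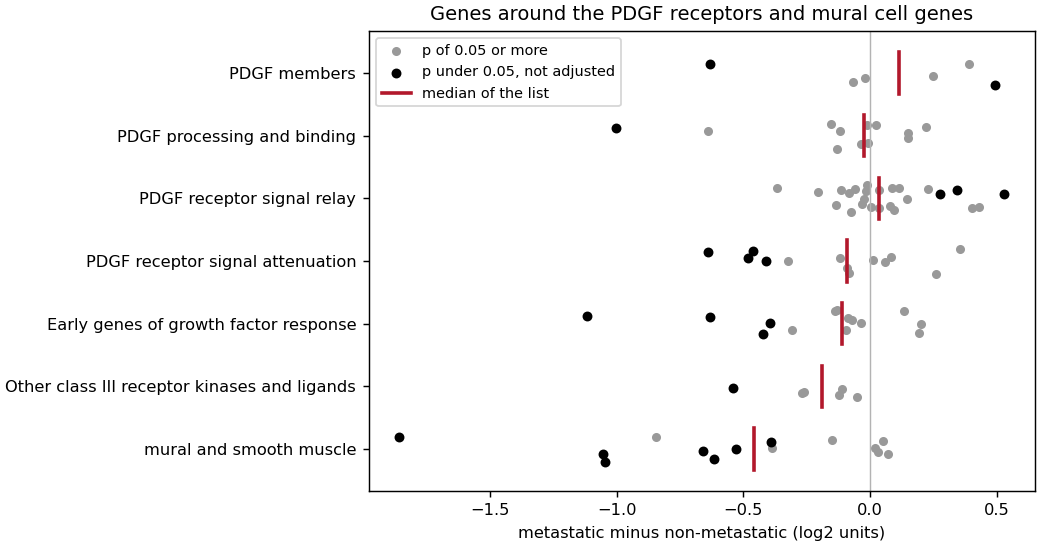
Difference in log2 signal, metastatic minus non-metastatic, of each measured gene of the PDGF lists and of the mural cell list; black points have an unadjusted p under 0.05, and red bars are list medians. The black points of the attenuation, early gene and mural lists all lie below 0, and those of the relay list above it.

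Markers of the cells that PDGFs act on or come from were compared in the same way. Mural and smooth muscle genes were lower for 10 of 14, with a median of -0.46, and 7 were at an unadjusted p under 0.05, all lower, beside 4.07% of all genes. The summed signal of the list, on the log2 scale, was 14.16 and 14.84 in the metastatic group, against 15.16 and 15.08 in the non-metastatic group. The smooth muscle actin gene Actg2 differed by -1.86 (SE 0.11, limma adjusted p = 0.0863) and the smooth muscle myosin gene Myh11 by -0.61 (SE 0.11). Myh11 was dim, with a mean signal of 5.20, and its other probe set stood at -0.05 (SE 0.12). Acta2 and Tagln, the brightest of the list, differed by -0.53 (SE 0.20) and -0.84 (SE 0.34). Acta2 and Tagln rested in part on metastatic replicate 1, since they stood at -0.25 and -0.30 without it and at -0.81 and -1.39 without metastatic replicate 2. The median of the list was -0.34 and -0.49 without metastatic replicates 1 and 2, and -0.55 and -0.44 without non-metastatic replicates 1 and 2. The higher genes of the list were Rgs5 at 0.03 (SE 0.12) and Kcnj8 at 0.02 (SE 0.12), both dim, with Abcc9 and Anpep. Abcc9 stood at 0.07 (SE 0.12) and Anpep at 0.05 (SE 0.21). Pdgfa was also lower, and the part of mural cells in its value was not tested. Pdgfrb, which pericytes carry, stood at -0.02 (SE 0.13).

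Fibroblast genes gave 7 higher and 5 lower of 12, with a median of 0.02, 3 at an unadjusted p under 0.05, 2 of them higher (6.7% of all genes in either direction), and a summed signal of 16.01 and 15.96 in the metastatic group against 15.84 and 15.95 in the non-metastatic group. Postn, a matrix protein of activated fibroblasts, differed by 0.84 (SE 0.15) and Pdpn, which encodes the podoplanin targeted by the beads, by 0.51 (SE 0.11). Il7, the lower of these 3 genes, differed by -0.81 (SE 0.18). Col1a2 and Col1a1 differed by 0.01 (SE 0.13) and -0.06 (SE 0.15). The list turned with single arrays. Without metastatic replicate 1 it gave 5 higher and 7 lower, with a median of -0.21, and without metastatic replicate 2 it gave 8 higher and 4 lower, with a median of 0.25. Without non-metastatic replicates 1 and 2 the median was 0.02 and 0.06.

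Endothelium is a main source of the B chain. Its blood and pan endothelial genes were lower for 8 of 14, with a median of -0.12, 3 at an unadjusted p under 0.05, all lower (4.07% of all genes), and a summed signal of 10.85 and 11.06 in the metastatic group against 11.52 and 11.38 in the non-metastatic group. The sialomucin gene Emcn differed by -2.53 (SE 0.29). The median of the list was -0.30 and -0.21 without metastatic replicates 1 and 2, and -0.08 and -0.14 without non-metastatic replicates 1 and 2. Lymphatic genes were lower for 7 of 9, with 2 at an unadjusted p under 0.05 (6.7% of all genes), the hyaluronan receptor gene Lyve1 at -2.76 (SE 0.64; -3.80 to -1.71 without single arrays) and the coreceptor gene Nrp2 at 0.71 (SE 0.24; 0.45 to 0.98). The median of the lymphatic genes was -0.14, and it was -0.13 and -0.24 without metastatic replicates 1 and 2. Without non-metastatic replicates 1 and 2 the median of these genes was -0.01 and -0.32. Their summed signal was 9.83 and 10.19 in the metastatic group, against 10.33 and 10.37 in the non-metastatic group. Such a sum weights bright genes most, and Eng, the brightest of the blood and pan endothelial list, differed by -0.49 (SE 0.17). In that list 6 genes were higher, among them Kdr at 0.12 (SE 0.11) and Sox17 at 0.19 (SE 0.15). Pdgfb was higher on its brighter probe set and stood at -0.04 on the other. The part of these cell types in the PDGF values was not tested.

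Platelets store PDGFs, and leukocytes were, by the sorting label, removed from the metastatic preparations alone. Platelet and megakaryocyte genes gave 3 higher and 4 lower of 7, with 0 at an unadjusted p under 0.05 (6.7% of all genes). Their summed signal was 9.72 and 9.81 in the metastatic group against 9.82 and 9.81 in the non-metastatic group. Their marker Pf4 differed by -0.27 (SE 0.15) and Itga2b by 0.05 (SE 0.12). Leukocyte genes were lower for 6 of 9, with 2 at an unadjusted p under 0.05, Csf1r and Lyz2, both lower (4.07% of all genes), and a summed signal of 10.30 and 10.05 in the metastatic group against 10.74 and 10.66 in the non-metastatic group. The lysozyme gene Lyz2 read 6.06 and 6.16 in the metastatic group, against 8.29 and 6.86 in the non-metastatic group. The median of the leukocyte genes was -0.16, and it was -0.24 and -0.0009 without metastatic replicates 1 and 2. Without non-metastatic replicates 1 and 2 it was -0.08 and -0.05. The pan-leukocyte gene Ptprc, singled out after its values were seen, was dim, averaging 4.15 on the metastatic arrays and 4.11 on the non-metastatic ones. Macrophages are a source of PDGFs, and their part in the Pdgfa and Pdgfb values was not tested.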

How the data were processed

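RNA from 4 preparations was labelled with biotin and hybridized to 4 Affymetrix arrays, per the labels' protocols. The values deposited by the authors are log2 signals per probe set, a scale read from their range. How the probes were summarised, and whether arrays were normalized to each other, is not given in the sources used here. Array medians differed by 0.116, more than the 0.1 set as a limit, so quantile normalization was applied (limma 3.58.1, R 4.3.3), with the values as deposited kept as an alternative. After 64 control probe sets were left out, 45037 were tested. Of these, 34945 had 1 gene symbol, 932 several and 9160 none, and symbols were updated through Entrez numbers for 34741.

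Groups came from the sample titles. limma (lmFit and eBayes, two-sided) gave metastatic minus non-metastatic, with 2 residual and 3.71 prior degrees of freedom, and Benjamini-Hochberg adjustment ran over the whole table, with calls under 0.05. Gene lists are described by counts and medians, without set tests; 70 of 79 genes of the PDGF lists beyond the members and 65 of 69 markers were measured. The members and lists were chosen with earlier results of these data known. Named genes were all 6 members, the 3 with the smallest p of each PDGF list, and the 2 with the smallest p and the 2 brightest of each marker list, of which the text gives those that bear on the members, and the 3 genes nearest to each of 2 members. A few other markers and genes of the PDGF lists, chosen after their values were seen, are given beside these named genes. The scripts were tested on simulated data. Plots used Python 3.11.15 with matplotlib 3.10.9. Alternatives were the deposited values, median centring, brighter probe sets, averaged probe sets per gene, probe sets of single transcripts, an intensity trend with robust settings, a replicate block, and each array left out.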

Additional observations from a re-analysis of the deposited data

How the results depend on the processing

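No PDGF gene was called under any of the 11 alternatives, and 2 arrays per group leave differences of moderate size undetected. The lowest adjusted p of a member over these settings was 0.130, for Pdgfa with the replicate number as a block. Over all probe sets limma called 0, against 5 (4 genes, 1 of them a marker) with an intensity trend and robust settings. With the replicate block, for which no label gives a pairing, it called 145 probe sets and 93 genes, among them 1 gene of the PDGF lists, Pdgfrl (adjusted p = 0.0365), and 5 markers. The deviations of the replicates numbered 1 from their group means correlated at 0.248 over probe sets, with only 2 pairs. Leaving out single arrays gave 0 to 67 called probe sets, 0 to 35 genes and 0 to 3 markers, in each case above 0 only without metastatic replicate 1, and 0 members and 0 genes of the PDGF lists.

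Pdgfa, Pdgfb, Pdgfc and Pdgfra kept their direction under every alternative in which they had a value. Averaged over its probe sets Pdgfb stood at 0.23 and Pdgfa at -0.52. Brighter probe sets alone left Pdgfb without a value, and probe sets of single transcripts alone left Pdgfc without one. Directions near 0 turned. Pdgfrb stood at 0.0014 with the mean of its probe sets and at 0.0216 with probe sets of single transcripts, and Col1a2 at -0.0088 with the mean. Without single arrays Pdgfd ranged from -0.23 to 0.10, Pdgfrb from -0.15 to 0.11, Col1a2 from -0.092 to 0.11, Col1a1 from -0.20 to 0.086, Itga2b from -0.027 to 0.13 and Treml1 from -0.23 to 0.013. The cause was not tested. Over 48 named genes and their alternatives, 496 values kept direction and side of the threshold, 13 changed sign and 8 passed the threshold.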
